A study of Mus musculus with 26 samples.

Results

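The interleukin-1 and interleukin-36 family was described here by 10 genes, chosen by their symbols among the 56738 symbols of the deposited count table. The genes were 7 agonists (*Il1a*, *Il1b*, *Il18*, *Il33*, *Il36a*, *Il36b* and *Il36g*), 2 antagonists (*Il1rn* and *Il36rn*) and 1 receptor (*Il1rl2*). Of the 10 genes, 9 passed the filter on low counts, a mean normalised count over 10, which kept 16893 genes, and *Il1b* did not. RNA sequencing was performed in primary keratinocytes from the epidermis of newborn C57BL/6NJ mice, which were 2 days old. Cells came from 5 wild-type (WT) mice and from 8 mice homozygous for a CRISPR-Cas9 deletion over exon 3 of *Pla2g4d* (KO), a single allele bred on the same strain, and the sex of the mice was not given in the labels. The authors report homozygous breeding after the backcross, so effects of genotype and of breeding or litter cannot be told apart. After 4 days of culture in low calcium (0.06 mM CaCl2), cells were left untreated (basal) or received IL17A and TNFα, each at 20 ng/ml, for 24 h. This gave 26 libraries in 4 groups, with 5 libraries for WT basal, 5 for WT with cytokines, 8 for KO basal and 8 for KO with cytokines. Libraries carry the numbers 1 to 5 (WT) or 1 to 8 (KO) in each condition, and the labels do not say whether a shared number marks a mouse.

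Interleukin-1 family cytokines are alarm signals of the epidermis. IL-1α, IL-33 and the IL-36 cytokines are made by keratinocytes and act when they are released or cut by proteases, whereas IL-1β and IL-18 are activated by caspase-1 in the inflammasome. IL-1α and IL-1β bind the IL-1 receptor and IL-36α, IL-36β and IL-36γ bind the IL-36 receptor encoded by *Il1rl2*; both receptors pair with the accessory protein encoded by *Il1rap* and signal through MyD88 to NF-κB. The IL-1 receptor antagonist (*Il1rn*) and the IL-36 receptor antagonist (*Il36rn*) occupy these receptors without starting a signal. IL17A and TNFα, the cytokines added here, drive psoriasis-like inflammation, in which IL-36 cytokines are abundant.

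In GRCm39 with the GENCODE annotation, 5 of the 10 genes (*Il36b*, *Il36g*, *Il36a*, *Il36rn* and *Il1rn*, in this order) lie on the plus strand of chromosome 2 from 24043161 to 24241506, a span of 198 kb that holds 3 IL-36 agonists and both antagonists. *Il1a* and *Il1b* lie together on the minus strand of the same chromosome, from 129140291 to 129213059. *Pla2g4d* lies on chromosome 2 as well, 9.02 Mb from *Il1a*. *Il18* is on chromosome 9, *Il33* on chromosome 19 and *Il1rl2* on chromosome 1. All 10 genes are protein-coding. Exons of *Il1a*, *Il1b*, *Il33* and *Il36g* overlap exons of a gene on the other strand, and the strand setting of the counting was not given in the sources used here.

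The 250 bases before the annotated start of the canonical transcript were searched on both strands for the κB motif bound by NF-κB, for the AP-1 motif TGANTCA and for the C/EBP motif TTGCNNAA. The κB motif was found in 1 of the 10 windows, that of *Il36a*, as GGGAAATCCC from 221 to 212 bases before the start, and in 7.62% of 21738 promoter windows of the same length. The AP-1 motif was found in the windows of *Il36b* and *Il1rn* and in 6.18% of all windows. The C/EBP motif was found in the windows of *Il36a* and *Il1rl2* and in 9.34% of all windows. A match is a description of the letters and no measure of binding, and a window without a match says only that these letters are not in it. The reference windows of *Il36a*, *Il36b*, *Il1rn* and *Il1a* are shown 5′ to 3′ as read from GRCm39. Shown are the windows with a κB or AP-1 match and that of *Il1a*, the gene called between basal genotypes below. *Il36b* was called in neither genotype with cytokines. *Il18*, *Il33*, *Il36g* and *Il36rn*, which were called with cytokines, had no match to these motifs and are not shown. Capitals mark the κB match in *Il36a* and the AP-1 matches in *Il36b* and *Il1rn*, and the window of *Il1a* holds none of the 3 motifs.
*Il36a*, chr2:24105180-24105429, plus strand: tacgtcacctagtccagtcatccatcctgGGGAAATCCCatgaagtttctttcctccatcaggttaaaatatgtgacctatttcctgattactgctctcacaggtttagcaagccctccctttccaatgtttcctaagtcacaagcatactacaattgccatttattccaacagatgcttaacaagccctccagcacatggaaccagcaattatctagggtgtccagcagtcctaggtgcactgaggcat
*Il36b*, chr2:24042911-24043160, plus strand: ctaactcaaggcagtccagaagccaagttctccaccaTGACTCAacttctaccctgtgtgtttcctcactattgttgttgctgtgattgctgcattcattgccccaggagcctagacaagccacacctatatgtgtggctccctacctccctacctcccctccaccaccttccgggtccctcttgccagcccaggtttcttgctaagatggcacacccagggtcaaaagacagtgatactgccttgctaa
*Il1rn*, chr2:24226615-24226864, plus strand: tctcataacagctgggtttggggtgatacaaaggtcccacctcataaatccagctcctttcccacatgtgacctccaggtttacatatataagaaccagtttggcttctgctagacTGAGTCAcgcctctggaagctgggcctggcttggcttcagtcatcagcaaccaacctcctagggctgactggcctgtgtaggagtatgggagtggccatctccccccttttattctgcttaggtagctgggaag
*Il1a*, chr2:129152099-129152348, minus strand: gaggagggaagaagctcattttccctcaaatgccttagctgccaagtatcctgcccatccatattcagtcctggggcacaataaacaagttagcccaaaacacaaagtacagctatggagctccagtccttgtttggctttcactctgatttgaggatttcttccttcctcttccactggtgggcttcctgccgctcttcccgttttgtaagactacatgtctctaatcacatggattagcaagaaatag

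Total counts ranged from 42072745 to 78102858 per library. The keratinocyte markers *Krt5*, *Krt14*, *Itga6* and *Trp63* summed to between 28993 and 42102 CPM (counts per 1000000 of the scaled library size) in every library, and 6 differentiation markers (*Krt1*, *Krt10*, *Ivl*, *Lor*, *Flg* and *Tgm3*) to between 118 and 4018 CPM. Of other cell types, 4 melanocyte markers summed to 291 to 604 CPM, 9 immune markers to 3.4 to 20.3 CPM, 5 fibroblast markers to 1.60 to 5.38 CPM and 3 endothelial markers to 1.04 to 5.86 CPM. The Langerhans cell gene *Cd207* was at 0 in all libraries. The gene-level counts of *Pla2g4d* also take in its undeleted exons and cannot show that exon 3 is missing. The log2 fold change of KO over WT was -0.70 under basal conditions and -0.45 in the presence of cytokines. Neither reached an adjusted p under 0.1 (edgeR). With cytokines, *Pla2g4d* rose by a log2 fold change of 3.97 in WT and 4.22 in KO cells.

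Per kb of exon, a scale that adjusts for gene length, *Il36g* had the highest mean level of the family in all 4 groups and *Il36rn* the second highest. The length was the union of all annotated exons, 1906 bases for *Il36g* and 4565 for *Il36rn*, which can differ from that of the transcripts present. In CPM without this adjustment the mean of *Il36rn* was above that of *Il36g* in all 4 groups (191 against 120 in WT basal), so their order rests on the lengths used. In WT basal cells the levels per kb were 63.0 ± 16.9 CPM (SD, n = 5) for *Il36g* and 41.8 ± 10.3 for *Il36rn*, whose libraries overlapped each other. *Il1rn* (17.5 ± 3.17), *Il36b* (15.7 ± 6.04) and *Il1rl2* (12.5 ± 0.491) followed, and neighbours among these 3 overlapped. *Il18* (9.0 ± 1.91), *Il1a* (6.45 ± 1.21), *Il36a* (4.15 ± 1.94) and *Il33* (2.27 ± 0.666) were lower still and each overlapped with its neighbour in this order, and *Il1b* (0.0538 ± 0.0401) was below all of them. With IL17A and TNFα, *Il36a* moved from the eighth to the third place in WT cells at 52.8 ± 13.1 CPM per kb and overlapped with *Il36rn* above it (77.6 ± 19.3) and *Il1rn* below it (46.9 ± 8.44). *Il18* fell to 1.27 ± 0.255 CPM per kb. In KO cells with cytokines *Il36a* took the fourth place at 35.1 ± 8.33 CPM per kb (SD, n = 8), and its libraries overlapped with those of *Il1rn* (36.7 ± 5.66) and *Il1a* (29.5 ± 3.50).

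**Figure D1:**
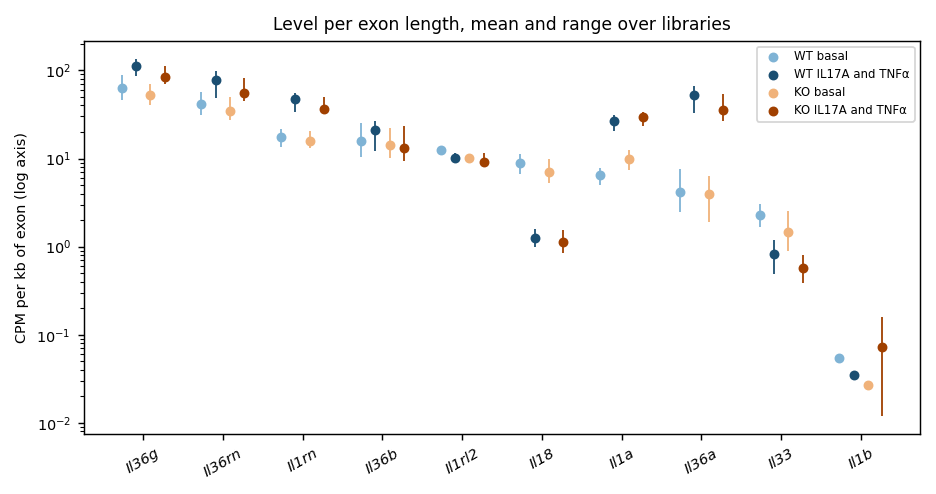
Level of each family gene in CPM per kb of exon (log axis), ordered by the WT basal mean. Points are group means (n = 5 WT and 8 KO libraries per condition) and lines the range over libraries, left out where a library was at 0, as for *Il1b* in 3 of the groups. *Il36g* and *Il36rn* lead in every group, while *Il36a* and *Il1a* lie far higher and *Il18* far lower in the presence of cytokines.

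In both genotypes IL17A and TNFα raised 5 family genes and lowered 2. *Il36a*, *Il1a*, *Il36g*, *Il1rn* and *Il36rn* rose and *Il18* and *Il33* fell, so that agonists were found in both directions and both antagonists rose. A gene was called at an adjusted p under 0.1 (edgeR, Benjamini-Hochberg over all genes tested) and a fold change over 1.5. By this rule 13.7% of all genes were called in WT cells (8.52% higher and 5.21% lower) and 10.8% in KO cells (6.29% higher and 4.52% lower), against 7 of the 9 family genes tested in each genotype. The median log2 fold change of the 9 genes was 0.84 in WT and 0.67 in KO, beside 0.01 and 0.0046 over all genes. WT and KO libraries with and without cytokines did not overlap for 6 and 5 of the 10 genes, respectively, and for 20.5% and 11.8% of all genes. In bulk RNA, fewer cells of a type and less RNA per cell cannot be told apart. The summed differentiation markers moved with the treatment, from 2106 to 4018 CPM in WT basal cells to 171 to 342 CPM with cytokines and from 1675 to 3678 to 118 to 222 CPM in KO cells, with 5 of the 6 markers called lower in each genotype. Of 3 endothelial markers both tested ones were called higher in each genotype, with sums of 1.04 to 2.86 CPM without and 3.22 to 5.25 CPM with cytokines in WT, and of 1.79 to 4.44 and 4.50 to 5.86 CPM in KO cells. The 4 melanocyte markers summed to 408 to 584 CPM without and 315 to 458 CPM with cytokines in WT, where none was called, and to 444 to 604 and 291 to 386 CPM in KO cells, where 2 were called lower. The part of any of these markers in the changes of the family was not tested.

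**Figure D2:**
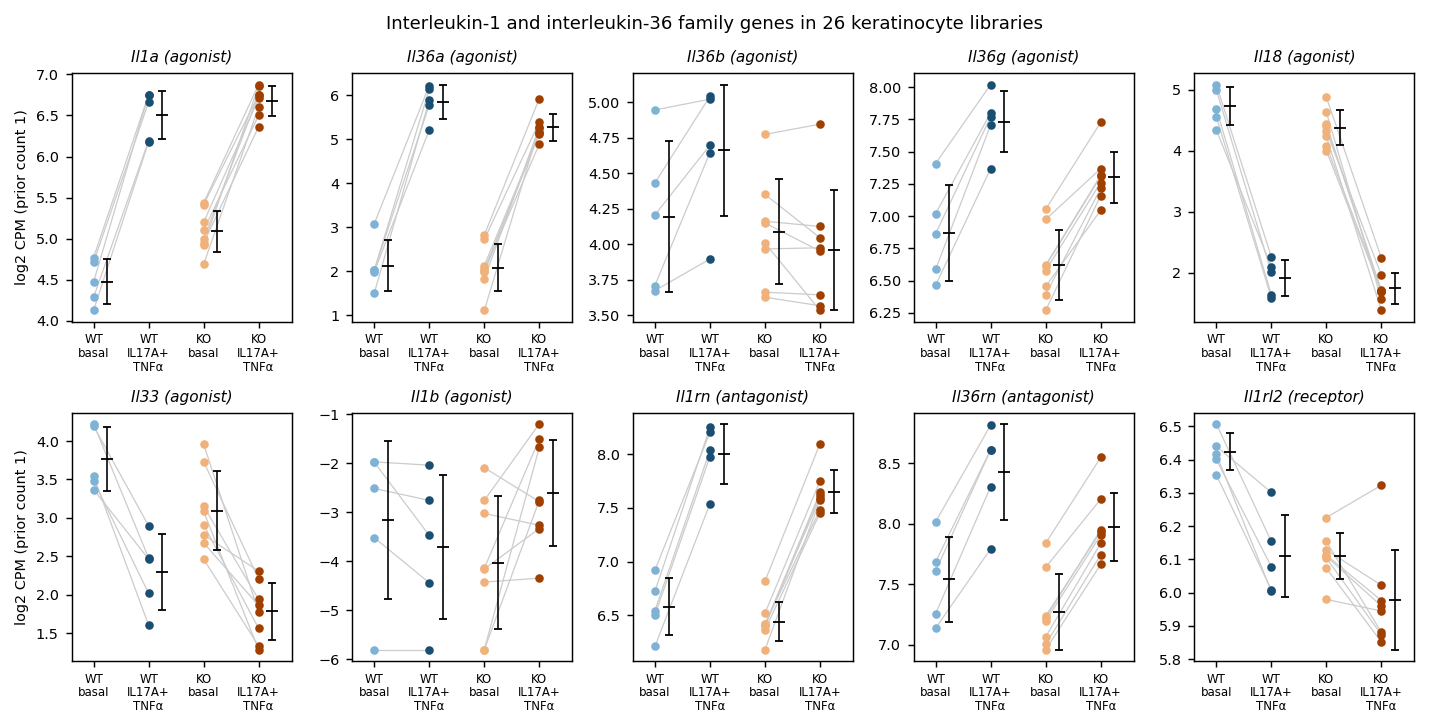
Log2 CPM (prior count 1) of the 10 family genes in the 26 libraries. Points are libraries, grey lines join the 2 libraries with the same number, and bars show the group mean ± SD (n = 5 WT, n = 8 KO). The axes differ between panels; *Il1a*, *Il36a* and *Il1rn* separate upwards and *Il18* and *Il33* downwards in both genotypes, and *Il1b* lies below 0 on the log2 scale throughout.

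*Il36a*, which encodes the agonist IL-36α, showed the largest change of the family. In the 5 WT replicates it was measured under basal conditions at 3.94, 8.41, 2.80, 4.03 and 4.04 CPM and in the presence of cytokines at 37.0, 74.3, 59.2, 70.2 and 54.9 CPM, in the order of their numbers. In KO cells the lowest, median and highest of 8 libraries were 2.14, 4.04 and 7.04 CPM under basal conditions and 29.6, 37.1 and 60.7 CPM with cytokines. Treated and basal libraries thus lay apart in both genotypes, and WT replicate 2 was the highest of the WT libraries with and without cytokines. Its log2 fold change was 3.68 ± 0.31 in WT (SE, adjusted p = 1.55e-09, edgeR) and 3.15 ± 0.24 in KO (SE, adjusted p = 2.56e-10, edgeR), or 12.8-fold and 8.86-fold.

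*Il1a* encodes IL-1α, an agonist that keratinocytes hold ready inside the cell. WT basal libraries had 19.5, 26.2, 17.4, 22.2 and 27.3 CPM, and those with cytokines had 73.0, 101.3, 72.4, 108 and 108 CPM. In KO cells the lowest, median and highest values were 25.7, 33.1 and 43.2 CPM without and 82.3, 106 and 117 CPM with cytokines. No treated library reached down to the basal ones. *Il1a* rose 4.11-fold in WT (log2 fold change 2.04 ± 0.16 SE, adjusted p = 2.4e-10, edgeR) and 2.99-fold in KO cells (log2 fold change 1.58 ± 0.12 SE, adjusted p = 2.11e-10, edgeR).

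*Il36g* encodes IL-36γ, the most abundant member per length. Its values in WT cells were 88.3, 170, 96.1, 130 and 116 CPM under basal conditions and 165, 260, 209, 223 and 218 CPM with cytokines. In KO cells they ran from 77.1 over a median of 96.7 to 133 CPM and, with cytokines, from 132 over 156 to 212 CPM. The WT groups overlapped through WT replicate 2, high without cytokines, and WT replicate 1, low with them, and the KO groups through the basal library of KO replicate 8, yet the treated library was above the basal library of the same number in all 13 pairs. For *Il36g* the log2 fold change was 0.84 ± 0.17 in WT (SE, adjusted p = 0.000453, edgeR) and 0.67 ± 0.14 in KO (SE, adjusted p = 0.000415, edgeR).

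*Il36b*, the gene of IL-36β, was the IL-36 agonist that was called in neither genotype. WT libraries had 12.8, 30.8, 13.1, 21.6 and 18.4 CPM under basal conditions and 14.9, 32.5, 25.02, 32.9 and 25.9 CPM with cytokines, and KO libraries 12.3, 16.9 and 27.3 CPM (lowest, median, highest) against 11.6, 15.6 and 28.7 CPM. The values overlapped widely; between libraries of the same number they were higher with cytokines in 5 of 5 WT pairs and in 2 of 8 KO pairs. With libraries treated as independent, its log2 fold change was 0.44 in WT (95% interval -0.13 to 1.01, adjusted p = 0.254, edgeR) and -0.11 in KO (95% interval -0.57 to 0.35, adjusted p = 0.777, edgeR). With the library number as a fixed block, it was 0.47 in WT (adjusted p = 0.000553, edgeR), past the threshold on p but under 1.5-fold. In KO it was then -0.13 (adjusted p = 0.243, edgeR).

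*Il18* and *Il33* were the agonists that fell. *Il18*, whose product is activated by caspase-1 and drives interferon-γ production, was measured in WT cells at 20.2, 33.9, 23.5, 32.0 and 25.8 CPM and with cytokines at 4.26, 4.76, 2.98, 3.99 and 3.09 CPM. KO values were 15.98, 20.6 and 29.4 CPM (lowest, median, highest) without and 2.58, 3.22 and 4.70 CPM with cytokines. Every treated library was below every basal library, with a log2 fold change of -2.82 ± 0.18 in WT (SE, adjusted p = 1.32e-13, edgeR) and -2.64 ± 0.14 in KO (SE, adjusted p = 2.28e-15, edgeR).

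*Il33* encodes a nuclear alarm cytokine that acts on lymphoid and mast cells. In WT cells it had 11.2, 18.7, 11.7, 10.3 and 18.3 CPM under basal conditions and 4.04, 5.55, 3.02, 5.50 and 7.44 CPM with cytokines. In KO cells the lowest, median and highest values were 5.50, 7.98 and 15.6 CPM and, with cytokines, 2.41, 3.50 and 4.93 CPM. Basal and treated libraries did not overlap in either genotype, although *Il33* varied more among libraries than *Il18* (coefficient of variation 39.1% against 20.7% in KO basal cells). On the log2 scale *Il33* changed by -1.46 ± 0.28 in WT (SE, adjusted p = 0.000182, edgeR) and -1.36 ± 0.22 in KO (SE, adjusted p = 2.51e-05, edgeR).

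*Il1b*, the gene of the inflammasome-activated agonist IL-1β, was close to the detection limit. Its counts ranged from 0 to 26 per library, 178 counts over all 26 libraries, with a count of 0 in 1 WT basal, 1 WT cytokine and 2 KO basal libraries. The WT values were 0.0694, 0.237, 0, 0.157 and 0.236 CPM under basal conditions and 0.0282, 0.225, 0, 0.130 and 0.0722 CPM with cytokines. KO libraries had a median of 0.0385 CPM (highest 0.217) under basal conditions and of 0.129 CPM (lowest 0.0314, highest 0.419) with cytokines. A count of 0 allows up to 3 counts, which correspond to 0.0386 to 0.0709 CPM depending on the library, and covers counting error only; its counts were even in 26 of 26 libraries, so the limit would be higher if both mates of a read pair were counted. Between libraries of the same number, *Il1b* was higher with cytokines in 6 of 8 KO and 0 of 5 WT pairs, 1 of the latter with 0 counts in both libraries. It did not pass the filter on low counts and was not part of the test.

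Both antagonists rose with IL17A and TNFα. *Il1rn* had 73.9, 121, 90.7, 106 and 93.2 CPM in WT basal libraries and 186, 295, 252, 304 and 262 CPM in those with cytokines. KO cells had 72.4, 85.1 and 113 CPM (lowest, median, highest) and, with cytokines, 175, 195 and 274 CPM. All treated libraries lay above all basal libraries of the same genotype. *Il1rn* rose 2.68-fold in WT (log2 fold change 1.42 ± 0.14 SE, adjusted p = 2.78e-08, edgeR) and 2.32-fold in KO cells (log2 fold change 1.22 ± 0.11 SE, adjusted p = 6.34e-09, edgeR).

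*Il36rn* was measured in WT cells at 141, 259, 153, 206 and 195 CPM under basal conditions and at 222, 450, 317, 391 and 391 CPM with cytokines. In KO cells the values ran from 125 over a median of 148 to 229 CPM and from 203 over 242 to 374 CPM. The WT groups overlapped through WT replicate 1 and WT replicate 2, as for *Il36g*, the KO groups overlapped as well, and the value was higher with cytokines in all 13 pairs of libraries with the same number. *Il36rn* had a log2 fold change of 0.89 ± 0.21 in WT (SE, adjusted p = 0.00185, edgeR) and 0.70 ± 0.17 in KO (SE, adjusted p = 0.00206, edgeR).

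*Il1rl2*, the IL-36 receptor chain, varied little among libraries and changed by less than 1.5-fold. WT libraries had 81.8, 85.4, 86.8, 84.5 and 91.0 CPM under basal conditions and 64.4, 64.2, 78.9, 67.5 and 71.2 CPM with cytokines, and KO libraries 63.1, 69.1 and 74.8 CPM (lowest, median, highest) against 57.7, 61.9 and 80.1 CPM. The WT groups did not overlap, whereas the KO groups did through the treated libraries of KO replicates 6 and 8, and the other 6 treated libraries were below all basal ones. Its log2 fold change was -0.31 ± 0.07 in WT (SE, adjusted p = 0.000464, edgeR) and -0.13 ± 0.05 in KO (SE, adjusted p = 0.0745, edgeR), past the threshold on p, as were 36.4% and 35.6% of all genes, but under 1.5-fold.

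**Figure D3:**
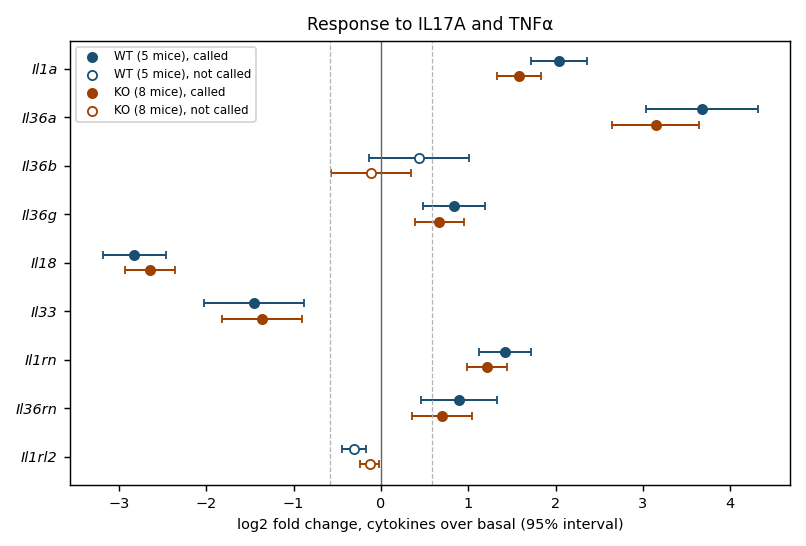
Log2 fold change of cytokines over basal in WT (blue, 5 mice) and KO cells (brown, 8 mice) with 95% intervals for the 9 family genes tested. Filled points passed both thresholds, and dashed lines mark a 1.5-fold change. *Il36a* leads at 3.68 and 3.15, *Il18* is lowest at -2.82 and -2.64, and the intervals of *Il36b* include 0.

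Within each library, the ratio of antagonist to agonist transcripts was taken as the difference of their log2 CPM, which is a description without a test. The *Il1rn* to *Il1a* ratio was 2.11 ± 0.250 on the log2 scale (SD, n = 5) in WT basal cells and 1.49 ± 0.200 with cytokines, a ratio of 4.31 and 2.82 on the linear scale. In KO cells it was 1.35 ± 0.276 (SD, n = 8) and 0.98 ± 0.160, or 2.55 and 1.97. The log2 ratio was lower with cytokines in all 13 pairs of libraries with the same number, by a mean change of -0.61 ± 0.101 in WT and -0.38 ± 0.167 in KO. All 4 group means thus kept an excess of *Il1rn* over *Il1a* reads, with the smallest in KO cells exposed to cytokines.

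The ratios of *Il36rn* to the IL-36 agonists went in different directions. *Il36rn* to *Il36a* dropped from 5.42 ± 0.357 to 2.58 ± 0.158 in WT and from 5.20 ± 0.348 to 2.71 ± 0.166 in KO cells (log2, SD), in all 13 pairs of same-numbered libraries. *Il36rn* to *Il36b* increased in all 13 pairs, from 3.35 ± 0.189 to 3.77 ± 0.149 in WT and from 3.18 ± 0.124 to 4.01 ± 0.220 in KO cells. *Il36rn* to *Il36g* had nearly the same mean with and without cytokines, 0.67 ± 0.0490 and 0.69 ± 0.178 in WT and 0.65 ± 0.0721 and 0.67 ± 0.112 in KO cells, and moved up in 3 of 5 WT and 6 of 8 KO pairs. These ratios compare read counts of genes of different length, so a change within a gene pair can be read and the level of one pair against another cannot.

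**Figure D4:**
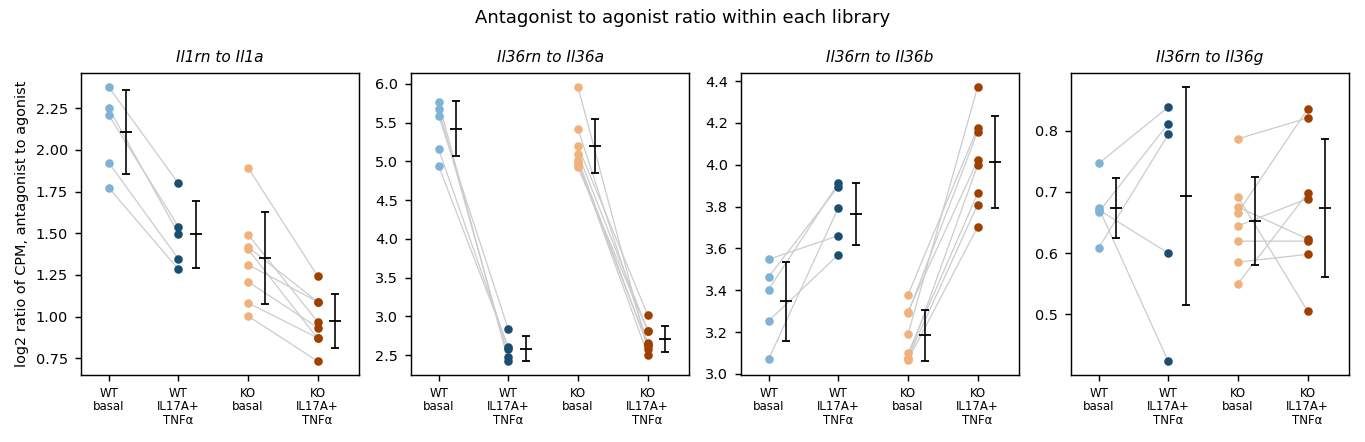
Log2 ratio of antagonist to agonist CPM in each library, for *Il1rn* to *Il1a* and for *Il36rn* to each IL-36 agonist. Points are libraries, grey lines join the 2 libraries with the same number, and bars are group means ± SD (n = 5 WT, n = 8 KO); the axes differ between panels. The first 2 ratios drop and the third increases in all 13 pairs, and the fourth has means between 0.65 and 0.69.

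Without cytokines, *Il1a* was the family gene called between genotypes. It was higher in KO cells, 34.4 ± 6.12 CPM (SD, n = 8) against 22.5 ± 4.21 CPM (SD, n = 5) in WT, and 7 of 8 KO libraries were above all WT libraries. The log2 fold change was 0.62 ± 0.14 (SE, adjusted p = 0.00573, edgeR), which is 1.53-fold. Of all genes, 2.58% were called in this comparison and 1.56% were called higher, against 1 of the 9 family genes. The call sat close to the fold threshold. With the libraries of 1 number left out, its log2 fold change was 0.56 without WT replicate 1, 0.53 without WT replicate 3 and 0.56 without KO replicate 6 or KO replicate 7, under 1.5-fold, with adjusted p between 0.0113 and 0.02 (edgeR).

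*Il1rl2* was lower in KO cells under basal conditions, 69.2 ± 3.32 CPM (SD, n = 8) against 85.9 ± 3.38 CPM (SD, n = 5), and all KO libraries were below all WT libraries. The 2 genotypes did not overlap, in either direction, for 3.03% of all genes. The log2 fold change of -0.31 ± 0.06 (SE, adjusted p = 0.000664, edgeR) passed the threshold on p, as did 13.4% of all genes, but not that on the fold change. *Il33* had a log2 fold change of -0.63 ± 0.24 (SE, adjusted p = 0.107, edgeR) and missed the threshold, while it passed at 0.0424 with DESeq2 and 0.0837 with limma on the authors' log2 values, and on leaving out WT replicate 1 or 3 (edgeR adjusted p = 0.0795 and 0.0925) or KO replicate 7 or 8 (0.0299 and 0.0524). The antagonists had log2 fold changes of -0.15 for *Il1rn* (95% interval -0.41 to 0.11, adjusted p = 0.549, edgeR) and -0.27 for *Il36rn* (95% interval -0.66 to 0.11, adjusted p = 0.43, edgeR). *Il36a*, *Il36b* and *Il36g* were at -0.06, -0.14 and -0.27 and *Il18* at -0.36 (adjusted p = 0.932, 0.795, 0.333 and 0.12, edgeR).

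In the presence of IL17A and TNFα, no family gene was called between genotypes with edgeR, compared with 0.58% of all genes. The log2 fold changes of KO over WT were below 0 for 8 of the 9 genes tested, among them *Il36b* at -0.69 (95% interval -1.20 to -0.18, adjusted p = 0.173), *Il36a* at -0.59 (-1.09 to -0.09, adjusted p = 0.253), *Il36rn* at -0.47 (-0.85 to -0.09, adjusted p = 0.228), *Il36g* at -0.44 (-0.75 to -0.12, adjusted p = 0.166) and *Il1rn* at -0.36 (-0.62 to -0.10, adjusted p = 0.17). Agonists and antagonists of the IL-36 group lay on the same side. *Il1a* was at 0.16 (-0.12 to 0.44, adjusted p = 0.663). At an unadjusted p under 0.05 there were 7 of 9 family genes, all lower, beside 14.5% of all genes in either direction and 8.04% of all genes that were lower. These 7 genes come from the same libraries and are not independent of each other. After subtraction of group means, Pearson's r was 0.95 between *Il36g* and *Il36rn* and 0.91 between *Il36b* and *Il1rn*.

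For *Il36g*, 159 ± 23.8 CPM in KO (SD, n = 8) stood against 215 ± 33.9 CPM in WT cells with cytokines (SD, n = 5), and 7 of 8 KO libraries were below all WT libraries, the exception being KO replicate 8. *Il36a* had 39.3 ± 9.33 against 59.1 ± 14.6 CPM, *Il36b* 16.2 ± 5.53 against 26.2 ± 7.32 CPM and *Il36rn* 256 ± 55.1 against 354 ± 87.9 CPM, and these groups overlapped. No family gene had KO and WT libraries wholly apart with cytokines, beside 1.08% of all genes. The count of called genes turned on 2 replicate numbers: without WT replicate 1, *Il36a*, *Il36b* and *Il36rn* were called (log2 fold changes -0.71, -0.84 and -0.59, adjusted p = 0.0884, 0.0328 and 0.0407, edgeR), and without KO replicate 8, *Il36a* and *Il36b* were called (-0.70 and -0.86, adjusted p = 0.0951 and 0.0291, edgeR). The count over all genes rose as well, from 98 to 536 without WT replicate 1 and to 258 without KO replicate 8. DESeq2 called *Il36b* (adjusted p = 0.0972), and limma on the authors' log2 values called none.

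Differentiation markers moved with the genotype as well. Their sum had a median of 3009 CPM in WT and 1803 CPM in KO basal libraries (ranges 2106 to 4018 and 1675 to 3678), with 2 of 6 markers called lower, and a median of 294 and 134 CPM with cytokines (ranges 171 to 342 and 118 to 222), with 3 of 6 called lower. The 4 melanocyte markers had median sums in WT and KO libraries of 535 and 521 CPM without cytokines and of 441 and 316 CPM with them, where 3 were lower at an adjusted p under 0.1 (edgeR) but none reached 1.5-fold. The endothelial markers had median sums of 1.95 and 3.01 CPM without cytokines, where 1 of the 2 tested was called higher in KO cells, and of 4.83 and 5.10 CPM with them. The part of these differences in the values of the family was not tested. The 4 markers of basal keratinocytes summed to medians of 29674 and 29770 CPM with cytokines, and none of them was called. Over all genes, 2.58% were called between genotypes under basal conditions and 0.58% with cytokines. At an adjusted p under 0.1 alone (edgeR), 435 of 16893 genes passed with cytokines.

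**Figure D5:**
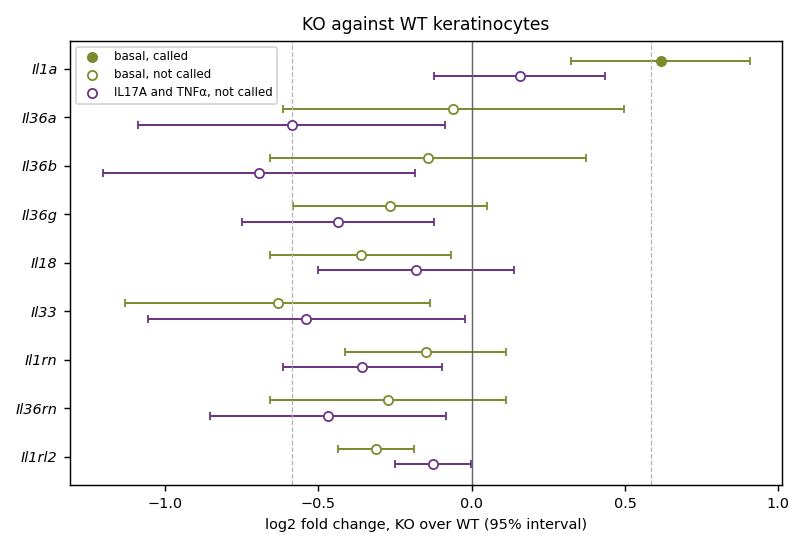
Log2 fold change of KO over WT cells with 95% intervals, under basal conditions (green) and with IL17A and TNFα (purple), for the 9 family genes tested (5 WT and 8 KO mice). Filled points passed both thresholds and dashed lines mark a 1.5-fold change. *Il1a* under basal conditions, at 0.62, is the one filled point, and 8 of the 9 purple points lie below 0.

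The interaction term asks whether the response to cytokines differed between genotypes. With libraries treated as independent, edgeR called no family gene for it, compared with 0.201% of all genes. An unadjusted p under 0.05 was found for 2 of the 9 family genes tested, as for 9.03% of all genes. These were *Il1a*, with a log2 interaction of -0.46 (95% interval -0.86 to -0.06, adjusted p = 0.438, edgeR), and *Il1rl2*, with 0.19 (0.0098 to 0.36, adjusted p = 0.515, edgeR). For the other genes the intervals of the interaction were wide, such as -1.28 to 0.23 for *Il36a* and -0.62 to 0.28 for *Il36g*. DESeq2 and limma called no family gene. With the library number as a fixed block (edgeR), *Il36b* was called at -0.59 (adjusted p = 0.0122), 1 of 80 genes called over all. *Il1a* (0.0282) and *Il1rn* (0.0724) then passed on p but stayed under 1.5-fold. As a random block (limma) no family gene was called. The labels do not say whether a shared number marks a mouse.

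Of 38 genes around the family (receptors and binding proteins, adaptors and feedback, processing and release), 35 were tested, and 12 rose and 0 fell in WT, while 12 rose and 1 fell in KO cells with cytokines, beside 8.52% higher and 5.21% lower in WT and 6.29% and 4.52% in KO over all genes. The median log2 fold change of the 35 genes was 0.15 in WT and 0.13 in KO. Among adaptors and feedback regulators the same 4 of 14 genes rose in both genotypes, all of them inducible regulators of NF-κB signalling. *Irak3*, an inhibitory kinase of the receptor complex, had log2 fold changes of 2.05 in WT and 1.81 in KO, *Tnfaip3* (A20) of 1.83 and 1.19, *Nfkbia* (IκBα) of 1.53 and 1.22, and *Nfkbiz* (IκBζ), an IL-36 and IL17A response gene, of 1.11 and 1.13. The signal-transducing adaptor *Myd88* was at -0.23 in both, under 1.5-fold.

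Of 9 receptor and binding protein genes, *Il18rap*, a chain of the IL-18 receptor, rose in both genotypes, with log2 fold changes of 2.30 and 1.27. Its level was low, at most 1.55 CPM. In KO cells *Il18r1* (0.83) and the IL-33 receptor *Il1rl1* (1.41) also rose and the decoy receptor *Il1r2* fell by 0.65. In WT cells the means of these genes moved the same way, but the genes were not called. Mean CPM without and with cytokines in WT was 4.001 and 5.63 for *Il18r1*, 0.94 and 2.13 for *Il1rl1*, and 0.996 and 0.703 for *Il1r2*. The interaction was not called for any of them. The calls of *Il1rl1* and *Il1r2* were lost on leaving out 1 replicate number: without KO replicate 8 the adjusted p of *Il1rl1* was 0.102, and without KO replicate 2, 3, 4 or 7 that of *Il1r2* was 0.177, 0.208, 0.148 and 0.134 (edgeR). The accessory chain *Il1rap* was at 0.31 and 0.42, under 1.5-fold.

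Among 15 genes of processing and release, of which 12 were tested, 7 rose in WT and 5 in KO cells. In WT the largest rises were those of the inflammatory caspase *Casp4* (log2 fold change 2.53), the DNA sensor *Aim2* (2.03) and the pore-forming gasdermin *Gsdmd* (1.59), and in KO cells *Casp4* (2.29), *Aim2* (1.73), *Gsdmd* (1.31), *Nlrp10* (0.75) and *Casp1* (0.73) rose. Levels of *Casp4*, *Aim2* and *Casp1* were low. Without and with cytokines, *Casp4* had means of 0.302 and 1.77 CPM and *Aim2* of 0.741 and 3.04 CPM in WT, and *Casp1* of 0.641 and 1.06 CPM in KO cells. The call of *Casp1*, the protease that activates IL-1β and IL-18, was lost without KO replicate 2 (adjusted p = 0.130, edgeR) or KO replicate 8 (adjusted p = 0.150, edgeR). In WT, *Casp8* and *Capn2* were at 0.61 and 0.60, next to the threshold, and left the count without WT replicate 3 (*Casp8*, 0.53) and without WT replicate 2 or 5 or KO replicate 3, 5, 6 or 8 (*Capn2*, 0.55 to 0.58).

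Between genotypes, 1 of the 35 genes was called under basal conditions, beside 2.58% of all genes. It was *Il18rap*, at 1.08 (adjusted p = 0.0573, edgeR), from 0.222 ± 0.0794 CPM in WT (SD, n = 5) and 0.468 ± 0.221 CPM in KO (SD, n = 8). This call was lost without WT replicate 3, 4 or 5 or KO replicate 3 or 7 (adjusted p = 0.171, 0.116, 0.108, 0.128 and 0.111, edgeR). The IL-1 receptor gene *Il1r1* was at 0.40 under basal conditions and 0.30 with cytokines (adjusted p = 0.000398 and 0.039, edgeR), under 1.5-fold. With cytokines none of the 35 genes was called, beside 0.58% of all genes. The interaction was called for 1 of the 35, *Tnfaip3*, beside 0.201% of all genes, at -0.64 ± 0.09 (SE, adjusted p = 0.00116, edgeR). Its levels were 32.8 ± 1.78 and 117 ± 13.2 CPM in WT (SD, n = 5) and 49.0 ± 4.62 and 111 ± 8.79 CPM in KO cells (SD, n = 8), without and with cytokines. Without WT replicate 3 its interaction was -0.56 (adjusted p = 0.00777, edgeR), under 1.5-fold.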

How the data were processed

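Primary keratinocytes of 13 mice were measured by bulk RNA sequencing, and 26 libraries were used. The authors aligned the reads with STAR 2.7.10b to mm39 and the deposited counts, without normalization, were made per gene with featureCounts 2.0.6 and the GENCODE annotation. The authors also deposited log2 values of counts normalized with DESeq2. Counts from 1 to 10 were even in 83.8% of cases, so the 2 mates of a pair may have been counted separately. The floors for libraries without a count cover counting error only, whereas the edgeR intervals also take in the spread between libraries.

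For testing, genes with a mean normalised count over 10 entered edgeR 4.0.16 (R 4.3.3, TMM, 1 quasi-likelihood model of 4 groups, Benjamini-Hochberg adjustment over 16893 genes) and called at an adjusted p under 0.1 and over 1.5-fold. TMM factors scaled the CPM values (counts per 1000000 of the scaled library size), with a prior count of 1 on the log2 scale. Levels per kb used the union of GENCODE exons in GRCm39. Intervals are 95%. Depth left the spread between mice as the limit of precision. Between libraries of a group the chi-square of the counts was at least 7.42 per degree of freedom, above sampling noise. Each library was counted as 1 replicate. The chi-square cannot show that libraries are independent, and it did not compare libraries of different conditions.

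The family genes and the gene lists were chosen with earlier results of these data known. Pathway genes were named where called or, where over 6 were called in a list, as the 3 largest rises; values of *Myd88*, *Il1rap* and *Il1r1* and of the other WT calls next to the threshold were chosen after they were seen. Libraries of 1 genotype share numbers between conditions. The labels name 13 mice but do not say that a number marks a mouse, so the numbers were not used as pairs in the model, which treats libraries as independent. Litters, sex and sequencing batches were not given in the labels. Results were recomputed with DESeq2 1.42.0 or its size factors, with limma 3.58.1 on the deposited log2 values, without a filter or with filterByExpr, from the compared groups alone, with the number as a block, with other thresholds and prior counts, and after removal of each replicate number or of WT replicate 2 together with KO replicate 4. The procedure was tested on simulated data.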

Additional observations from a re-analysis of the deposited data

Results flagged for a closer look

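Of 40 combinations of a family gene and a group, 4 had a library far from the others by Dixon's criterion, where chance gives about 1 in 20, or 2. All 4 were the library of KO replicate 8 with cytokines, which was the highest of its group for *Il36b* (28.7 CPM), *Il36g* (212 CPM), *Il1rn* (274 CPM) and *Il1rl2* (80.1 CPM). These 4 values come from 1 library and are not independent of each other. *Tnfaip3* responded differently to cytokines in the 2 genotypes, with an interaction of -0.64 on the log2 scale (adjusted p = 0.00116, edgeR).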

How the results depend on the processing

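The cytokine effects on the family stood at 7 called genes in each genotype in all alternatives other than the thresholds, with 5 at adjusted p under 0.05 and over 2-fold and 8 at adjusted p under 0.1 alone, and leaving out each replicate number gave 7 to 7. For the basal genotype effect, 2 genes instead of 1 were called with DESeq2, with limma on the authors' log2 values, with the number as a random replicate block and at adjusted p under 0.1 alone, and 0 at the stricter threshold; leaving out each replicate number gave 0 (without KO replicate 6) to 2 (without KO replicate 8). For the genotype effect with cytokines, DESeq2 called 1 gene instead of 0, and leaving out each replicate number gave 0 to 3. For the interaction, the replicate block gave 1 instead of 0 with the number as a fixed term and 0 as a random term, and leaving out each replicate number gave 0. The replicate block changed no other count of family genes. As a fixed term (edgeR) it gave an interaction of -0.59 for *Il36b* (adjusted p = 0.0122), and *Il1a* (0.0282) and *Il1rn* (0.0724) passed on p under 1.5-fold, as did *Il36b* in WT (0.000553); as a random term (limma) it gave an adjusted p of 0.0293 for *Il33* and 0.202 for *Il18rap* between basal genotypes. The residuals of same-numbered libraries correlated at 0.00051 to 0.254, over 0.1 in 8 of 13 pairs, and 10 of 13 were closest to their own number.

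Directions reversed for genes that were not called. Under basal conditions *Il36a* between genotypes was between -0.21 and 0.27 with each number left out, at 0.27 without WT replicate 2, 0.04 without KO replicate 5 and 0.29 without WT replicate 2 and KO replicate 4, and *Il36b* was between -0.27 and 0.088, the latter without WT replicate 2, and at 0.10 without both. The interaction of *Il33* was between -0.030 (without KO replicate 6) and 0.26. The cause was not tested. The antagonist to agonist ratios moved by less than 1 SD under every alternative tried. Over all genes, the basal genotype count was 436 (331 without WT replicate 2 to 791 without WT replicate 1). With cytokines it was 98 (33 without WT replicate 3 to 536 without WT replicate 1, 258 without KO replicate 8, 153 with DESeq2). For the interaction it was 34 (16 without KO replicate 5 to 77 without WT replicate 1, 62 with DESeq2, 80 with the number as a fixed block). *Il1b* did not pass the filter on low counts; without a filter its log2 fold change with cytokines was -0.59 in WT and 1.40 in KO (adjusted p = 0.858 and 0.280, edgeR).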

Other observations

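After subtraction of group means, the log2 CPM of several family genes varied together across the 26 libraries, given here as a description, since all points share their normalization and come from 13 mice. Pearson's r was 0.95 between *Il36g* and *Il36rn*, 0.93 between *Il36b* and *Il36rn* and 0.92 between *Il36b* and *Il36g*, so that IL-36 agonists and their antagonist were high or low in the same libraries. *Il36a* was less close to *Il36rn* (0.81), and *Il1a* had 0.38 with *Il36a* and 0.54 with *Il1rn*. *Il1rl2* had 0.46 with *Il36g*.

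For the 8 members with a mean over 10 CPM, the genes most like each over these libraries were named by the highest r among all genes tested. They were the gasdermin *Gsdma* (0.99) and the keratin *Krt80* (0.98) for *Il36rn*, *Gsdma* (0.93) and *Hadha* (0.93) for *Il1rn*, the desmosome-associated *Perp* (0.96) and *Pof1b* (0.96) for *Il36g*, and the cornification protease *Casp14* (0.96) and *Tmem229b* (0.95) for *Il36b*. *Osbpl1a* (0.87) and *Nlrp10* (0.86) were nearest to *Il36a*, *Tnfrsf23* (0.91) and *Pxk* (0.87) to *Il1a*, *Gsdmc* (0.80) and *Wdfy2* (0.80) to *Il18*, and *Flrt3* (0.85) and *Serpinb12* (0.80) to *Il1rl2*. The differentiation markers *Krt1*, *Krt10* and *Lor* had r of 0.75, 0.63 and 0.85 with *Il36b* and of 0.22, 0.07 and 0.42 with *Il1a*. High values were not particular to *Il36b*. For *Lor*, r was 0.92 with *Il36rn*, 0.86 with *Il36g*, 0.84 with *Il1rn* and 0.80 with *Il36a*. It was 0.56 with *Il33*, 0.49 with *Il18* and 0.43 with *Il1rl2*. For *Krt10*, r was 0.79 with *Il1rl2*. Values for *Ivl*, *Flg* and *Tgm3* are not given.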
